A study of Mus musculus with 4 samples.

Results

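The proteoglycan core proteins examined here are the products of 10 genes, *Acan*, *Vcan*, *Bgn*, *Dcn*, *Lum*, *Sdc1*, *Sdc2*, *Sdc4*, *Gpc1* and *Gpc6*, taken by symbol from a table of 48587 genes. All 10 had a row, and all 10 were among the 18916 genes that passed the filter on low counts. The cells were primary mouse vascular smooth muscle cells (VSMCs), grown out of the descending aorta of C57BL/6J mice aged 8 to 12 weeks after the adventitia was digested off and the endothelium scraped away. They carried no engineered allele, and each culture was transduced with a lentivirus and collected 3 days after infection began. The control virus (shCTR) expressed a hairpin against a plant microRNA sequence, and the other virus (shMettl14) a hairpin against *Mettl14*. Both groups were exposed to virus, and shMettl14 rests on a single hairpin. Each group had 2 poly-A libraries, which bear the letters A and B. The labels do not say whether a letter marks a shared culture or separate animals, so p-values measure only the spread between these libraries.

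*Mettl14* encodes a subunit of the enzyme complex that writes N6-methyladenosine (m6A) into mRNA, and the comparison asks how mRNA levels differ once it is depleted. Proteoglycans consist of a core protein that carries long sulfated sugar chains, attached to serines that are mostly followed by glycine. In the artery wall, aggrecan (*Acan*) and versican (*Vcan*) bind hyaluronan and hold water, and biglycan (*Bgn*), decorin (*Dcn*) and lumican (*Lum*) bind collagen fibrils. Syndecans (*Sdc1*, *Sdc2*, *Sdc4*) span the cell membrane and glypicans (*Gpc1*, *Gpc6*) are fixed to it by a lipid anchor, and both act as coreceptors for growth factors through heparan sulfate. Chondroitin and dermatan sulfate proteoglycans made by VSMCs are also known for retaining lipoproteins in the intima.

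The attachment sites can be read from the coding sequences, of which the longest per gene was taken from the GENCODE M21 annotation of GRCm38. Stretches of 60 bases are shown for 1 or 2 genes of each class, to let potential attachment sites be compared. Each is a stretch of its gene with the most such sites, so it shows the highest local density and not a typical one. Capitals mark a serine codon followed by a glycine codon.
Acan: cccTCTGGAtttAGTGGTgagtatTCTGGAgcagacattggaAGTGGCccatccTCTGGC
Bgn: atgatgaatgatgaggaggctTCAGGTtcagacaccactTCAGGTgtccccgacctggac
Dcn: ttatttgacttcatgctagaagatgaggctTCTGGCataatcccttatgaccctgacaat
Sdc1: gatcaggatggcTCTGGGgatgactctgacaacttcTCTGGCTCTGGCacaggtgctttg
Sdc4: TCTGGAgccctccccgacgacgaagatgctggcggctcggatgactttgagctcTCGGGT
Gpc6: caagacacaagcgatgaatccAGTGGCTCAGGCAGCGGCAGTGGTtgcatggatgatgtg
The *Acan* stretch covers codons 1245 to 1264 and holds 5 such pairs. That of *Bgn* (codons 35 to 54) holds 2 and that of *Dcn* (codons 24 to 43) holds 1, near the start of each small protein. In *Gpc6* (codons 496 to 515) 4 pairs follow each other without a gap, close to the end of the protein. Over the whole coding sequence, *Acan* had 122 pairs, or 5.72 per 100 codons, against a median of 0.474 over 21548 protein-coding genes. *Vcan* had 30 pairs (0.894 per 100 codons), *Gpc1* 6, *Sdc1* and *Gpc6* 5 each, *Bgn* 4, *Sdc2* and *Sdc4* 3 each, and *Dcn* and *Lum* 2 each. The density of the other members lay between 0.565 (*Dcn*) and 1.61 (*Sdc1*), so all 10 were above the median gene. A pair of codons is a description of the sequence and does not show that a chain is attached.

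Libraries held 114343653 to 124815868 counts, and a gene at 0 counts could have had up to 3, or 0.0231 to 0.0278 CPM, for counting error only. CPM are here counts divided by the library total and by edgeR's TMM factor. *Mettl14* had 18.0 and 19.9 CPM in shCTR A and B and 4.60 and 4.37 CPM in shMettl14 A and B, which is 23.6% of the shCTR mean. All 9 smooth muscle markers were detected in every library. Endothelial markers were detected too, although the endothelium had been scraped away, but their levels differed widely. *Pecam1* (477 to 820 CPM) and *Cdh5* (508 to 818 CPM) were the highest of the 8 listed. *Egfl7* had 118 to 209 CPM and *Tie1* 134 to 171 CPM. The others were low, with *Vwf* at 16.4 to 18.9 CPM, *Tek* at 5.04 to 10.9 CPM, *Kdr* at 5.06 to 9.75 CPM and *Cldn5* at 0.574 to 1.15 CPM. In bulk libraries such as these, fewer cells of a type and less RNA per cell cannot be told apart.

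Biglycan mRNA dominated the group. The 10 genes took 0.708% and 0.762% of all counts in shCTR A and B, and 0.595% and 0.597% in shMettl14 A and B. *Bgn* made up 82.5% to 86.5% of the members' counts in the 4 libraries. Per kilobase of exon, the mean *Bgn* level over the 4 libraries was 929 CPM/kb, or 79.6% of the members' summed level. The syndecans *Sdc4* (64.0 CPM/kb), *Sdc2* (59.2 CPM/kb) and *Sdc1* (40.2 CPM/kb) came next, beside *Gpc6* at 38.5 CPM/kb. *Dcn* had 18.0 CPM/kb, *Acan* 7.53 CPM/kb, *Gpc1* 6.85 CPM/kb and *Vcan* 3.84 CPM/kb. *Lum*, at 0.086 CPM/kb, was close to absent. Ranges over the libraries overlapped between *Sdc4* and *Sdc2*, between *Sdc1* and *Gpc6*, and between *Acan* and *Gpc1*, so these neighbours did not differ beyond their spread, whereas the other neighbours in the order did not overlap. Exon lengths come from a later annotation than the one used for counting, and they take all exons of a gene together.

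**Figure D1:**
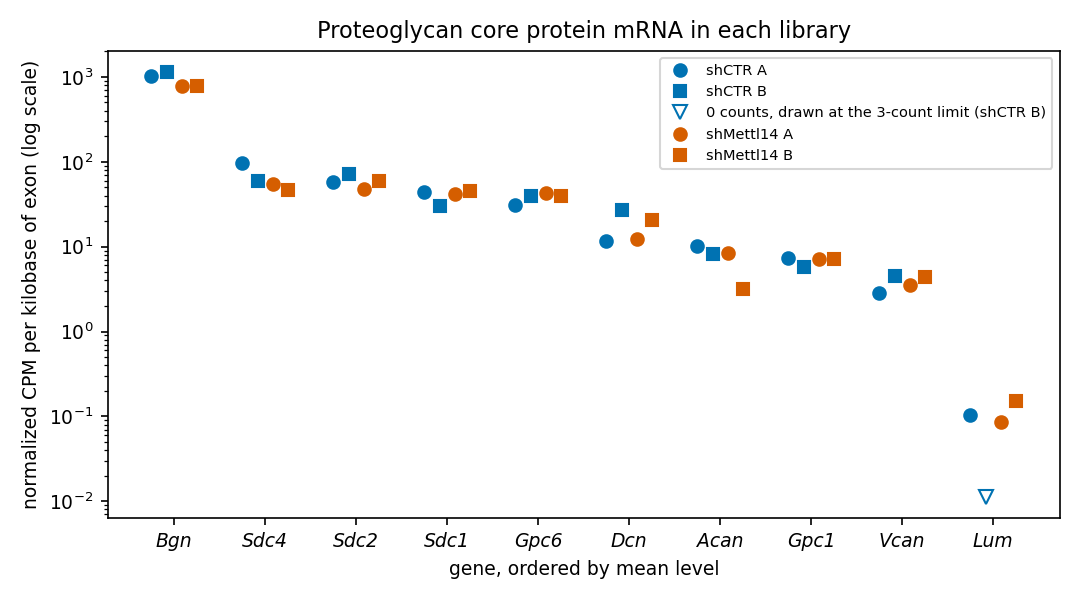
Normalized level (CPM per kilobase of exon, log scale) of the 10 core protein genes in each of the 4 libraries, with shCTR in blue, shMettl14 in orange, circles for A and squares for B. *Bgn* lies at 775 to 1143 CPM/kb above all others, *Acan* in shMettl14 B (3.20 CPM/kb) and *Dcn* by letter stand out within their genes, and the open triangle is *Lum* in shCTR B, which had 0 counts.

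No core protein gene passed the test of shMettl14 against shCTR. With edgeR's quasi-likelihood test and Benjamini-Hochberg adjustment over 18916 genes, 0 of 10 members had an adjusted p under 0.05, and the adjusted p was 1.0 for each. That fit had no term for the letter, so its spread includes any difference between letters. Over all genes tested, 0% were called by the same rule. *Mettl14*, the target of the hairpin, was thus not called by this fit either (log2 difference −2.08, SE 0.25, edgeR unadjusted p = 0.00039). Without adjustment, 1 member was lower at a p under 0.05 (*Bgn*) and 0 were higher, where 1.01% of all genes were lower and 0.656% higher. DESeq2 called 0 members and put 0 under an unadjusted p of 0.05, where it called 5 of 29127 genes and put 442 under that p. With a term for the letter added to edgeR, 3 members were lower at an unadjusted p under 0.05 (*Acan*, *Bgn* and *Sdc4*) and 0 were higher. After adjustment 0 members were called. Over all genes tested, that fit put 1049 lower and 892 higher at that unadjusted p and called 9. Without that term, 5 of the fitted log2 differences were negative and 5 positive, with a median of −0.058 against 0.0094 over all genes tested. With 2 libraries per group, the smallest two-sided p of an exact permutation test is 0.333, so none is given.

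Among the collagen-binding core proteins, *Bgn* (ENSMUSG00000031375, chrX:73483602-73495933, plus strand) was lower with shMettl14. Its level was 6181 and 6973 CPM in shCTR A and B and 4777 and 4726 CPM in shMettl14 A and B. Both shMettl14 libraries were below both shCTR libraries, and the means were 6577 ± 560 CPM (SD, n = 2) and 4752 ± 36.2 CPM (SD, n = 2), a level of 72.2%. The log2 difference was −0.47 (SE 0.18, 95% interval −0.94 to −0.0014, unadjusted p = 0.0495 and adjusted p = 1.0 from edgeR), with −0.37 within A and −0.56 within B. These levels rest on 702027, 753148, 567290 and 614712 counts in the order above. With a term for the letter in the fit, the difference was −0.47 (SE 0.16, edgeR unadjusted p = 0.015, adjusted p = 0.38). The unadjusted p was 0.092 with DESeq2, and with any 1 library left out it was above 0.05 in edgeR, with log2 differences of −0.55 to −0.38.

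*Dcn*, whose product also binds transforming growth factor β, differed between the letters more than between the hairpins. The gene (ENSMUSG00000019929, chr10:97479609-97518143, plus strand) had 68.3 and 160 CPM in shCTR A and B and 72.3 and 120 CPM in shMettl14 A and B. Both B libraries were above both A libraries, and the hairpin groups overlapped. The hairpin difference was −0.24 (SE 0.48, 95% interval −1.49 to 1.0, edgeR unadjusted p = 0.64), with 0.083 within A and −0.41 within B. *Bgn* exceeded *Dcn* per kilobase by 86.7 and 41.8 times in shCTR A and B and by 63.3 and 37.6 times in shMettl14 A and B.

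*Lum* (ENSMUSG00000036446, chr10:97565128-97572703, plus strand) lies next to *Dcn* on the same chromosome and was barely expressed. It had 29 and 0 counts in shCTR A and B and 25 and 49 counts in shMettl14 A and B, at most 0.377 CPM. The fitted log2 difference of 1.19 (SE 1.59, 95% interval −2.89 to 5.27, edgeR unadjusted p = 0.49) leans on the library with 0 counts, which allows up to 0.0278 CPM. Within A, where both libraries had counts, the log2 ratio was −0.26.

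The hyaluronan-binding core proteins differed from each other. *Acan* (ENSMUSG00000030607, chr7:79053483-79115099, plus strand) had 76.9 and 61.1 CPM in shCTR A and B and 63.0 and 23.9 CPM in shMettl14 A and B. The library shMettl14 B stood below the other 3, and the hairpin groups overlapped because shMettl14 A lay above shCTR B. The log2 difference was −0.67 (SE 0.49, 95% interval −1.92 to 0.58, edgeR unadjusted p = 0.23), with −0.29 within A and −1.35 within B, and was −0.13 without shMettl14 B and −1.53 without shMettl14 A. With a term for the letter in the fit, the difference was −0.82 (SE 0.23, edgeR unadjusted p = 0.0055, adjusted p = 0.30). Whether the ratios of A and B differ was not tested, since each rests on 1 library per hairpin.

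*Vcan* (ENSMUSG00000021614, chr13:89655312-89742509, minus strand), which encodes the main large proteoglycan of the vessel wall, had 41.4 and 64.6 CPM in shCTR A and B and 51.7 and 64.3 CPM in shMettl14 A and B. Its lowest library was shCTR A, and both B libraries were higher than both A libraries. The log2 difference between hairpins was 0.13 (SE 0.29, 95% interval −0.62 to 0.88, edgeR unadjusted p = 0.67), and it turned to −0.15 without shCTR A and to −0.029 without shMettl14 B. The ratio of *Acan* to *Vcan* per kilobase was 3.60 in shCTR A, 1.83 in shCTR B, 2.36 in shMettl14 A and 0.72 in shMettl14 B, so that *Vcan* exceeded *Acan* in shMettl14 B alone.

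Of the syndecans, *Sdc4* was lower in both shMettl14 libraries, *Sdc2* was lower within each letter, and *Sdc1* went opposite ways in A and B. *Sdc4* (ENSMUSG00000017009, chr2:164424247-164443887, minus strand), a syndecan of focal adhesions, had 243 and 151 CPM in shCTR A and B and 140 and 118 CPM in shMettl14 A and B. Its groups did not overlap, although shCTR B lay closer to shMettl14 A than to shCTR A. With a term for the letter in the fit, the difference was −0.58 (SE 0.17, edgeR unadjusted p = 0.0057, adjusted p = 0.31). Without that term the values were as follows. The log2 difference was −0.62 (SE 0.30, 95% interval −1.37 to 0.14, edgeR unadjusted p = 0.092), with −0.80 within A and −0.36 within B, and it was −0.23 without shCTR A and −0.92 without shCTR B.

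*Sdc2* (ENSMUSG00000022261, chr15:32920723-33034935, plus strand) had 206 and 256 CPM in shCTR A and B and 168 and 207 CPM in shMettl14 A and B. The groups overlapped, with shMettl14 B level with shCTR A, but the ratio was nearly equal in both letters, −0.30 in A and −0.31 in B on the log2 scale. From edgeR the log2 difference was −0.30 (SE 0.23, 95% interval −0.89 to 0.28, unadjusted p = 0.24). It moved with the libraries used, from −0.14 without shCTR B and −0.16 without shMettl14 A to −0.46 without shMettl14 B.

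*Sdc1* (ENSMUSG00000020592, chr12:8771323-8793715, plus strand) had 169 and 113 CPM in shCTR A and B and 157 and 172 CPM in shMettl14 A and B. The library shCTR B was the low one, and the other 3 lay close together. The log2 difference was 0.22 (SE 0.26, 95% interval −0.45 to 0.89, edgeR unadjusted p = 0.44), with −0.11 within A and 0.60 within B, and −0.044 without shCTR B. Per kilobase, *Sdc4* exceeded *Sdc1* by 2.15 and 1.99 times in shCTR A and B and by 1.34 and 1.02 times in shMettl14 A and B, a description chosen after the values were seen.

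The glypicans showed small differences. *Gpc6* (ENSMUSG00000058571, chr14:116925315-117976544, plus strand) had 200 and 254 CPM in shCTR A and B and 279 and 257 CPM in shMettl14 A and B. Both shMettl14 libraries were above both shCTR libraries, by a narrow margin in B. The log2 difference was 0.24 (SE 0.21, 95% interval −0.31 to 0.79, edgeR unadjusted p = 0.31), with 0.48 within A and 0.021 within B. It was 0.085 without shCTR A and 0.42 without shCTR B.

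*Gpc1* (ENSMUSG00000034220, chr1:92831645-92860779, plus strand) had 37.9 and 29.6 CPM in shCTR A and B and 37.1 and 36.7 CPM in shMettl14 A and B. The 2 shMettl14 libraries and shCTR A were alike, and shCTR B was lower. Its log2 difference was 0.13 (SE 0.22, 95% interval −0.44 to 0.69, edgeR unadjusted p = 0.59), and −0.043 without shCTR B. *Ankmy1*, on the other strand, overlaps 18.9% of the exon bases of *Gpc1*, and the sources used here do not state whether counting used strand, so reads of the pair may be mixed. The exons of the other 9 members overlap no other gene in GENCODE M21.

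**Figure D2:**
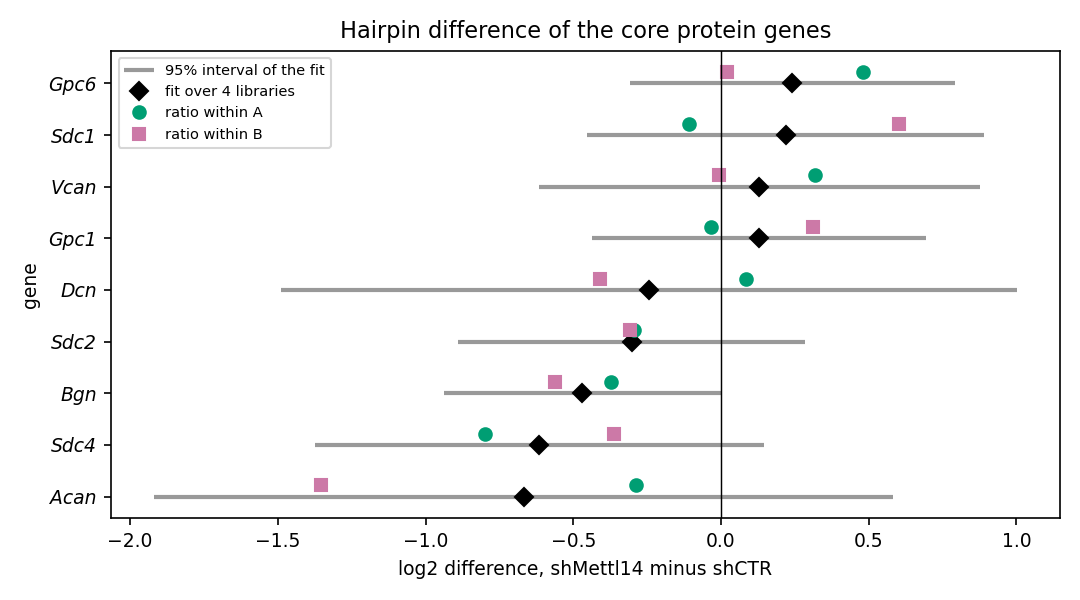
Log2 difference (shMettl14 minus shCTR) of 9 core protein genes, with the edgeR fit over 4 libraries (diamond), its 95% interval (gray line) and the ratios within A (circle) and within B (square). The interval of *Bgn* ends at −0.0014 and those of the other 8 genes span 0; *Lum*, with 0 counts in 1 library, is left out.

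Direction was read against all genes. Both shMettl14 libraries were below both shCTR libraries for 2 of 10 members (*Bgn* and *Sdc4*), where 13.3% of all genes tested were, and above them for 1 (*Gpc6*), where 14.7% were. Within both letters, shMettl14 was below shCTR for 4 members (*Acan*, *Bgn*, *Sdc2* and *Sdc4*), against 27.7% of all genes, and above it for 1 (*Gpc6*), against 30% of all genes. Each of these counts was within 2 genes of what the shares of all genes give for 10 genes.

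*Dcn* and *Acan* passed the test of B against A. In an edgeR fit with letter and hairpin, *Dcn* was higher in B by 0.98 (SE 0.17, 95% interval 0.60 to 1.36, adjusted p = 0.0036), with 1.23 within shCTR and 0.73 within shMettl14. *Acan* was lower in B, with a log2 difference of −0.86 (SE 0.23, 95% interval −1.38 to −0.35, adjusted p = 0.032 from edgeR), made up of −0.33 within shCTR and −1.40 within shMettl14. Most of the *Acan* value thus lay in shMettl14 B, and within shCTR only *Sdc2* (0.32) and *Bgn* (0.17) had ratios smaller in size. *Dcn* and *Acan* were the members that passed, 1 lower and 1 higher in B, where 8.95% of all genes tested were lower and 6.69% higher. *Vcan* was higher in B by 0.48 (SE 0.16) and *Sdc4* had a difference of −0.47 (SE 0.17), with edgeR adjusted p of 0.073 and 0.085. *Bgn*, the most abundant member, differed little between letters (0.079, SE 0.16, edgeR adjusted p = 0.79).

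**Figure D3:**
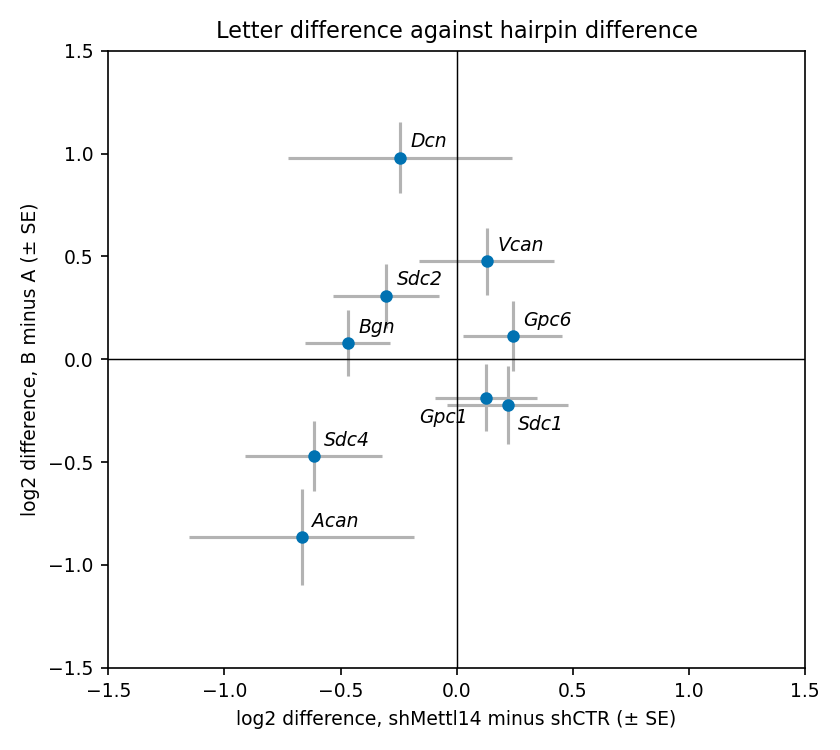
Log2 difference between letters (B minus A, vertical) against log2 difference between hairpins (shMettl14 minus shCTR, horizontal) for 9 core protein genes, each with its SE from edgeR. *Dcn* (0.98) and *Acan* (−0.86) lie farthest from 0 on the letter axis, and *Bgn* lies near 0 on it.

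Markers of the cultured cell type and of others were set beside these values, and their part in the results was not tested. The summed level of 9 smooth muscle markers was 6820 and 5786 CPM in shCTR A and B and 4466 and 4831 CPM in shMettl14 A and B. Within both letters 6 of 9 were lower with shMettl14, where 27.7% of all genes were, as were *Acan*, *Bgn*, *Sdc2* and *Sdc4*. *Acta2*, the most abundant of them, had 3547 and 2799 CPM with shCTR and 2171 and 2073 CPM with shMettl14. Between letters, 5 of the 9 were lower and 4 higher in B in both groups. The edgeR test of B against A called 1 lower, *Myh11* (log2 difference −1.69, adjusted p = 6.2e-05), with 338 and 101 CPM in shCTR A and B. It called 1 higher, *Myocd* (3.26, adjusted p = 5.4e-05), with 0.546 and 7.10 CPM in shCTR A and B. Fibroblast markers without *Dcn* and *Lum* summed to 1142 and 921 CPM in shCTR A and B and to 1149 and 947 CPM in shMettl14 A and B. The lower sum in B lay in *Col14a1*, with 322 and 37.6 CPM in shCTR A and B and 318 and 44.5 CPM in shMettl14 A and B. Without *Col14a1* the other 8 summed to 821 and 884 CPM in shCTR A and B and to 831 and 903 CPM in shMettl14 A and B. The sum thus had the direction of *Dcn*, higher in B, only once *Col14a1* was left out. That marker was picked because it held the lower sum, so the turn follows from the choice. The largest of the 8, *Cd34*, had 414 and 498 CPM in shCTR A and B and 449 and 505 CPM in shMettl14 A and B. Its letter difference was 0.22 (edgeR adjusted p = 0.39). By gene, 5 of 9 fibroblast markers were lower in B in both groups and 1 (*Cd34*) was higher, so most did not share the direction of *Dcn*. The edgeR test of B against A called 3 lower (*Col14a1* −2.97, *Clec3b* −3.17 and *Pdgfra* −0.65 on the log2 scale) and 0 higher. Chondrocyte markers without *Acan* summed to 186 and 377 CPM in shCTR A and B and to 152 and 301 CPM in shMettl14 A and B, and the higher sum in B lay in *Col2a1*. Without *Col2a1* the other 7 summed to 35.3 and 29.5 CPM in shCTR A and B and to 37.5 and 26.0 CPM in shMettl14 A and B. The sum thus had the direction of *Acan*, lower in B, only once *Col2a1* was left out, a marker picked because it held the higher sum. The largest of the 7, *Sox9*, had 28.0 and 27.3 CPM in shCTR A and B and 31.3 and 23.0 CPM in shMettl14 A and B. Its letter difference was −0.24 (edgeR adjusted p = 0.39). In both groups 4 of the 8 chondrocyte markers were lower in B and 2 were higher. The edgeR test of B against A called 2 lower, *Comp* (log2 difference −1.76, adjusted p = 0.012) and *Col11a2* (−1.52, adjusted p = 0.0097). It called 1 higher, *Col2a1* (1.24, adjusted p = 0.00048). *Hapln1* and *Matn1* were at 0 to 7 counts in every library. The 8 endothelial markers summed to 1393 and 1932 CPM in shCTR A and B and to 1409 and 1452 CPM in shMettl14 A and B, and the 7 leukocyte markers to 11.1 to 15.3 CPM. No endothelial or fibroblast marker was at 0 in any library.

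Beyond the 10 members, 109 genes of proteoglycan biology were listed by role and 93 were tested. With edgeR 0 of 93 passed after adjustment. Without adjustment, 2 were lower at a p under 0.05 (*Chst12* and *Hs2st1*) and 1 was higher (*Omd*), and the median log2 difference of the 93 was 0.037. Of the 93, 43 had a negative and 50 a positive difference. Of all 18916 genes tested, 9230 had a negative and 9686 a positive one, the share against which the counts of each list below are to be read. The largest departure among the genes that build the chains was *Chst12*, a sulfotransferase that places sulfate on position 4 of the galactosamine of chondroitin.

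*Chst12* had 74.8 and 100 CPM in shCTR A and B and 32.9 and 31.1 CPM in shMettl14 A and B, lower in both shMettl14 libraries. The log2 difference was −1.45 (SE 0.23, 95% interval −2.05 to −0.86), with an adjusted p of 1.0 from edgeR and 0.026 from DESeq2. It is 1 of 15 tested genes of chondroitin and dermatan sulfate synthesis, of which 7 had a negative and 8 a positive difference, with a median of 0.019. *Chst12* thus lay apart from the middle of its list.

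*Hs2st1*, the sulfotransferase that acts on position 2 of the uronic acid of heparan sulfate, had 66.8 and 66.5 CPM in shCTR A and B and 46.5 and 45.8 CPM in shMettl14 A and B. The libraries of each hairpin agreed closely, and the log2 difference was −0.53 (SE 0.18, edgeR unadjusted p = 0.034, adjusted p = 1.0). Among 19 tested genes of heparan sulfate synthesis and editing, 8 had a negative and 11 a positive difference, with a median of 0.048. The 7 enzymes of the linkage region, which joins either kind of chain to the core protein, had a median of −0.00092, and the lowest p was that of *Xylt2* (0.14, SE 0.26, edgeR unadjusted p = 0.62), a xylosyltransferase that starts the chain.

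Genes that supply sulfate and sugar donors had a negative difference in 8 of 11 cases, with a median of −0.11 and 0 called. *Impad1*, a phosphatase that clears a by-product of sulfation in the Golgi, had 139 and 158 CPM in shCTR A and B and 106 and 112 CPM in shMettl14 A and B. Its log2 difference was −0.44 (SE 0.19, edgeR unadjusted p = 0.071, adjusted p = 1.0), with groups that did not overlap.

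Of 24 other core proteins tested, 12 had a negative and 12 a positive difference, with a median of 0.047. *Hspg2*, which encodes the basement membrane proteoglycan perlecan, was the most abundant per kilobase at 188 CPM/kb, below *Bgn* and above *Sdc4*. It had 2588 and 2463 CPM in shCTR A and B and 3483 and 2241 CPM in shMettl14 A and B, so that its groups overlapped and its 2 shMettl14 libraries were the extremes. *Omd*, which encodes osteomodulin, a relative of *Dcn*, had 2.34 and 2.63 CPM in shCTR A and B and 4.71 and 4.80 CPM in shMettl14 A and B. The log2 difference of *Omd* was 0.93 (SE 0.32, edgeR unadjusted p = 0.034, adjusted p = 1.0), at a low level of expression.

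Hyaluronan partners make, cut or, like *Acan* and *Vcan*, bind the polymer. They had a positive difference in 8 of 11 tested genes, with a median of 0.079 and 0 called. *Tmem2*, a cell surface hyaluronidase, had 52.7 and 48.1 CPM in shCTR A and B and 68.1 and 65.8 CPM in shMettl14 A and B (log2 difference 0.41, SE 0.19, edgeR unadjusted p = 0.080). Proteases of the ADAMTS family that cut aggrecan and versican had a positive difference in 5 of 6 tested genes, with a median of 0.48, and 5 were higher within both letters, against 30% of all genes. None of the 6 was called by edgeR or DESeq2, and *Adamts15*, with the lowest p (0.33 unadjusted from edgeR), had only 44 and 0 counts with shCTR and 218 and 7 counts with shMettl14 in A and B.

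**Figure D4:**
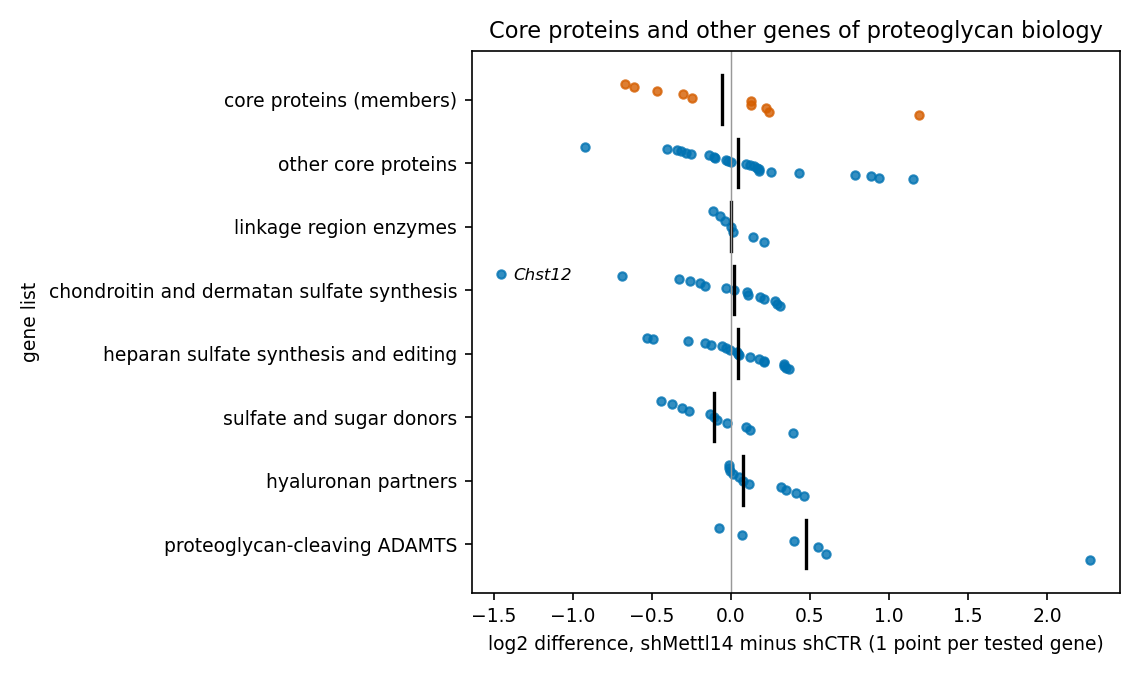
Log2 difference (shMettl14 minus shCTR, horizontal) of the 10 core protein genes and of 93 tested genes in 7 lists by role, 1 point per gene, with the median of each list as a black bar. *Chst12* at −1.45 lies apart from the other 14 genes of its list, and the median of that list is 0.019.

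Since *Mettl14* acts in m6A writing, the members were also searched for GGACT, a common form of the sequence around m6A, within 200 bases on each side of the stop codon, where the mark is often found. Only the sense strand was read. The word was found in 3 of 10 members, where 39% of 16957 protein-coding genes held it. The matches are shown with their flanks to let the sites be located, and capitals mark the word.
Vcan, coding: gcataccaaaGGACTtattctaaga
Vcan, after the stop codon: ttggattatgGGACTgccgtctggt
Sdc4, after the stop codon: agcgctgcttGGACTtattggggag
Gpc1, after the stop codon: ctatccccaaGGACTgtcttggcca
In *Vcan* the A of the word lies 110 bases before and 110 bases after the last base of the stop codon, in *Sdc4* 27 bases after it and in *Gpc1* 20 bases after it. These 3 genes had log2 differences of 0.13, −0.62 and 0.13. *Bgn*, *Acan*, *Dcn*, *Lum*, *Sdc1*, *Sdc2* and *Gpc6* had no match in this window, which says only that these letters are not there. A match does not show that the base is methylated.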

How the data were processed

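Poly-A RNA of VSMCs was sequenced in 4 libraries. Per the labels and the methods, the authors made strand-specific paired-end libraries, mapped reads to mm10 (Ensembl version 86) by STAR and assigned them to genes by featureCounts, with versions not given in the sources used here. The deposited values are raw counts in 1 table, used as they stand. The strand setting of the counting and the handling of reads that map more than once are not stated. All 4 columns matched 1 sample each by name.

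Groups were compared with edgeR 4.0.16 (R 4.3.3; TMM, filterByExpr, robust quasi-likelihood fit without a block, Benjamini-Hochberg adjusted p under 0.05), where the SE is the absolute log2 difference over the square root of F. Ratios within a letter used log2 CPM with a prior count of 2. DESeq2 1.42.0 (Wald test), other normalizations and filters, the letter as a block and leaving out each library were alternatives. The fits were also run on simulated counts with less spread than these data and no difference between letters. That run does not show how the fits perform at the spread seen here. Places and lengths came from GENCODE M21 on GRCm38.

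The members and lists were chosen with earlier results of these data known. Genes named were *Mettl14*, the members, the gene of lowest p in each list, genes called by any of the 3 fits and the most abundant other core protein. Markers named singly (*Acta2*, *Myh11*, *Myocd*, *Pecam1*, *Cdh5*, *Egfl7*, *Tie1*, *Vwf*, *Tek*, *Kdr*, *Cldn5*, *Col14a1*, *Cd34*, *Clec3b*, *Pdgfra*, *Col2a1*, *Sox9*, *Comp*, *Col11a2*, *Hapln1*, *Matn1*), *Adamts5* and *Adamts9* were chosen after their values were seen.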

Additional observations from a re-analysis of the deposited data

How the results depend on the processing

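The count of 0 members with an adjusted p under 0.05 held under every alternative. At an unadjusted p under 0.05, the 1 member (*Bgn*) became 0 with DESeq2, with upper-quartile factors and with at least 10 counts in every library, and 0 to 1 with a library left out. The gene was not the same: it was *Lum* without shCTR A (unadjusted p = 0.0040 from edgeR), *Sdc4* without shCTR B (0.0092) and with no filter (0.044), and *Acan* without shMettl14 A (0.0085), and *Bgn* stayed under 0.05 with RLE factors and the block alone. No paired design is stated, but deviations from the group means correlated between same-letter libraries (r = 0.58 across genes), and a fit with the letter as a replicate block put 3 members under an unadjusted p of 0.05 (*Acan*, *Bgn* and *Sdc4*), none adjusted (lowest 0.30). Over all 18916 genes that fit put 1941 under an unadjusted p of 0.05, against 315 without the block, and called 9 after adjustment, against 0. RLE factors put 317 genes under that unadjusted p, upper-quartile factors 302, at least 10 counts in every library 316 and no filter 471, with 0 called after adjustment in each. Of the pathway genes, DESeq2 and the replicate block called 1 against 0 (*Chst12*, adjusted p = 0.026 and 0.019), and the block put 15 against 3 under an unadjusted p of 0.05, beside the same rise over all genes, 3 of them ADAMTS genes (*Adamts5*, *Adamts9* and *Adamts15*). *Mettl14* was called by DESeq2 (adjusted p = 3.0e-07) and the block (0.0039). Of 99 alternative log2 differences of members, 93 kept direction and side of the threshold, and 6 reversed when a library was left out, with ranges of −0.15 to 0.48 for *Vcan*, −0.73 to 0.49 for *Dcn*, −0.044 to 0.54 for *Sdc1* and −0.043 to 0.32 for *Gpc1*. The causes were not tested. The summed marker levels without *Col14a1* and without *Col2a1* were added after the data were seen, and turned the direction between letters. *Lum* could not be tested with at least 10 counts in every library, and ranged from 0.20 to 8.13 with a library left out. By CPM without length, *Gpc6* ranked 2 and *Sdc4* 4. With 2 libraries per group, small differences cannot be detected, and a lone library was assumed to vary like the other group.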
